A study of Mus musculus with 10 samples.

Results

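The 6 genes described here encode the enzymes of the urea cycle, *Nags*, *Cps1*, *Otc*, *Ass1*, *Asl* and *Arg1*. They were chosen by name for that role, by a rule that uses no measured values but with earlier results of these data known, out of 12148 genes in the liver count table, and all 6 were expressed and tested. RNA had been sequenced from whole liver of 10 wild-type germ-free (GF) C57BL/6 mice, 1 library per mouse. Germ-free mice have no gut microbiota of their own. Of the 10 libraries, 5 (GF+MEV) came from mice given 80 μg of gut microbiota-derived extracellular vesicles (MEV) in PBS by mouth, 2 times per week for 3 weeks, and 5 (GF+PBS) from mice given PBS alone on the same schedule. MEV, the membrane particles shed by gut bacteria, had been isolated by centrifugation from caecal content and stool of other, control mice and were given in the late afternoon. The age and sex of these germ-free mice are not given in the sources used here.

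The urea cycle converts toxic ammonia from amino acid breakdown into urea, which the kidney excretes. It starts in the mitochondria of the hepatocyte, where NAGS makes N-acetylglutamate, the obligate activator of CPS1, CPS1 joins ammonia and bicarbonate into carbamoyl phosphate, and OTC passes the carbamoyl group to ornithine to give citrulline. Citrulline leaves for the cytosol, where ASS1 couples it to aspartate, ASL splits the product into arginine and fumarate, and ARG1 releases urea and returns ornithine to the cycle. The enzymes are richest in periportal hepatocytes, and the hepatocytes around the central vein capture the remaining ammonia as glutamine.

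Libraries held 15746119 to 20523649 counts on genes, and the smallest count of a member in a library was 866. Counting error was therefore a small part of the spread between livers for the members with high counts. It can be a larger part for *Nags*, which had the lowest counts, and for *Otc* in GF+PBS, whose SD was 1.76% of its mean. Values are given as CPM, counts scaled to a common library size with the TMM method, which corrects for libraries in which a few genes take a large part of the counts. GF+MEV replicate 2 stood apart from the other libraries, since CT010467.1, Gm23935 and *Lars2* together took 9.24% of its counts and 0.153% to 0.409% elsewhere, and its TMM factor was 0.8902. Results without it are given below. Within GF+PBS, replicates 1 and 3 were close over the 6 members, with a root mean square difference of 0.106 on the log2 scale, and so were replicates 4 and 5, at 0.108, against 0.13 to 0.338 for the other GF+PBS pairs. Even these pairs differed by more than sampling noise (chi-square per gene of at least 6.358 in every pair). That measure cannot show that 2 libraries are independent. All 10 libraries were counted as separate samples because the labels number each as its own mouse. Whether these mice shared a cage or litter is not stated. Nothing in the labels says more than that each library was a separate mouse, so p-values measure the spread between these mice in 1 experiment.

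Of the 6 members, 4 were higher in GF+MEV livers (*Cps1*, *Ass1*, *Asl* and *Arg1*) and 0 were lower by edgeR's quasi-likelihood test with Benjamini-Hochberg adjustment over all 12147 genes tested and a threshold of 0.05. The same test called 4.12% of all genes higher and 3.52% lower, 7.64% in either direction. DESeq2 called the same number, 4, and 5 of the 6 had an unadjusted edgeR p under 0.05, as had 21.2% of all genes. The median log2 fold change over the 6 was 0.337, against -0.00371 over all genes. For *Ass1*, *Asl* and *Arg1* the lowest GF+MEV value exceeded the highest GF+PBS value, a pattern seen in 3.94% of all genes in that direction, in 3.45% in the other and in 7.39% in either. The members together took 0.8231% to 1.132% of a library's counts in GF+MEV and 0.7268% to 0.9017% in GF+PBS. These shares are unscaled, and the lowest in GF+MEV was that of replicate 2. With TMM scaling the members summed to 9247 to 11210 CPM in GF+MEV and 7118 to 8853 CPM in GF+PBS, mostly from *Cps1* and *Ass1*.

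**Figure D1:**
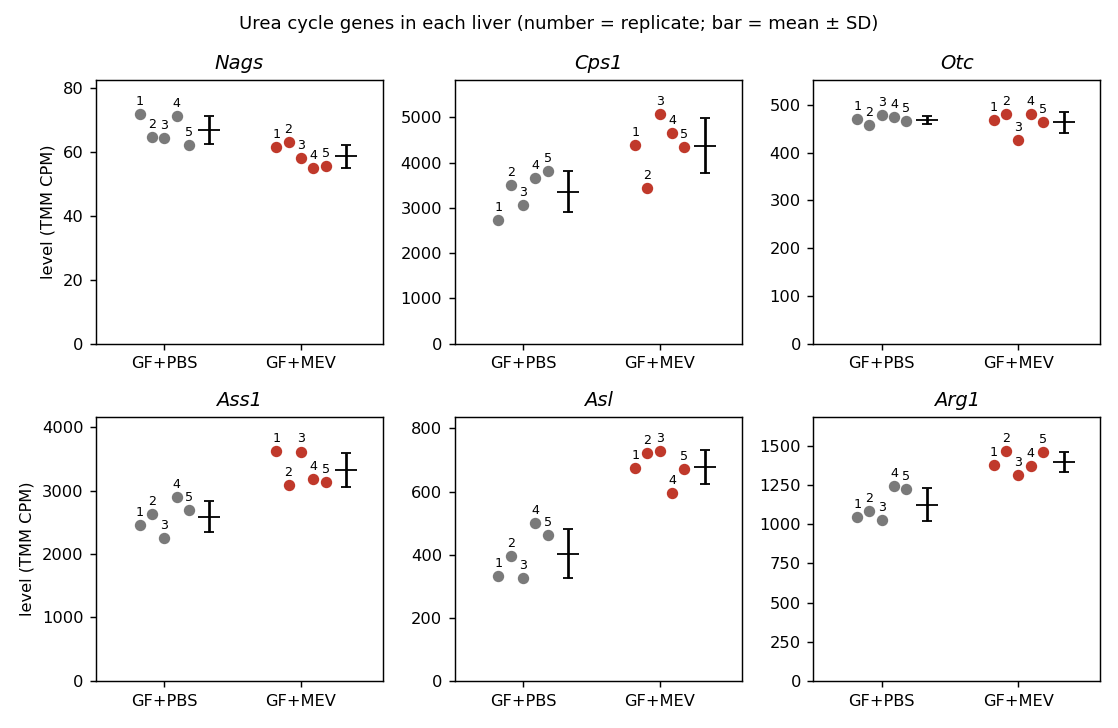
Level of each urea cycle gene in each liver, in TMM-scaled CPM on a linear axis from 0, with 5 GF+PBS livers in grey and 5 GF+MEV livers in red, each point numbered by replicate and the bars giving the mean ± SD. The groups are apart for *Ass1*, *Asl* and *Arg1*, overlap by 1 GF+MEV liver (replicate 2) for *Cps1*, and lie at the same height for *Otc*.

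Upstream of the cycle proper, *Nags* (ENSMUSG00000048217, GRCm38 chromosome 11, 102145513 to 102149477, plus strand) encodes the synthase of the CPS1 activator. It measured 61.4, 63.0, 58.1, 55.0 and 55.6 CPM in GF+MEV replicates 1 to 5 and 71.9, 64.7, 64.5, 71.3 and 62.1 CPM in GF+PBS replicates 1 to 5. The GF+MEV livers were in the lower part of the range, and only GF+MEV replicate 2 exceeded a GF+PBS liver, replicate 5. Means were 58.6 ± 3.50 and 66.9 ± 4.40 CPM (SD, n = 5 each), 12.3% lower in GF+MEV, with a difference of -0.19 on the log2 scale (standard error, SE, 0.057) that did not pass the test (edgeR adjusted p = 0.089). An exact permutation of the mice between groups, over all labelings, two-sided and unadjusted for the 6 members, gave p = 0.0159 for the difference in mean CPM (n = 5 mice per group). Under upper-quartile normalization *Nags* passed the threshold (log2 fold change -0.23, edgeR adjusted p = 0.047), the only one of 19 alternatives in which it did. Its exons overlap those of Gm11586 on the other strand, so reads of that gene could be included if counting ignored strand.

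*Cps1* (ENSMUSG00000025991, chromosome 1, 67123026 to 67231259, plus strand) encodes the enzyme that brings free ammonia into the cycle. Its level was 4389, 3428, 5070.3, 4661 and 4337 CPM in GF+MEV replicates 1 to 5 and 2741, 3509, 3065, 3658 and 3824 CPM in GF+PBS replicates 1 to 5. Of the 5 GF+MEV livers, 4 were above every GF+PBS liver, while replicate 2 lay inside the GF+PBS range. The mean was 4377 ± 605 CPM in GF+MEV and 3359 ± 446.1 CPM in GF+PBS (SD, n = 5 each), a 30.3% difference and a log2 fold change of 0.38 (SE 0.13, edgeR adjusted p = 0.041). The difference in mean CPM had an exact permutation p of 0.0317 (two-sided, n = 5 mice per group). *Cps1* sat close to the threshold and was past it in 8 of 19 alternatives, with edgeR adjusted p from 0.0077 without GF+MEV replicate 2 to 0.107 with GF+PBS replicates 1 and 3, and 4 and 5, taken as 1 sample each. Leaving out any 1 of GF+PBS replicates 1, 2, 3 and 4 or GF+MEV replicates 1, 3, 4 and 5 ended the call, with log2 fold changes still between 0.32 and 0.41 (edgeR adjusted p from 0.053 to 0.105).

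*Otc* (ENSMUSG00000031173, chromosome X, 10252305 to 10321024, plus strand) encodes the enzyme that forms citrulline. GF+MEV replicates 1 to 5 measured 469, 480.4, 427, 480.4 and 463 CPM, and GF+PBS replicates 1 to 5 measured 469.6, 457, 479, 473.5 and 465 CPM. All but GF+MEV replicate 3 lay within a narrow band, and the groups overlapped throughout. Means were 464 ± 22.0 and 469 ± 8.24 CPM (SD, n = 5 each), and the log2 fold change was -0.016 (SE 0.033, edgeR adjusted p = 0.91). By exact two-sided permutation p was 0.778 (n = 5 mice per group). On CPM without TMM scaling the GF+MEV mean was 0.938 times the GF+PBS mean (exact permutation p = 0.0397, two-sided, n = 5 mice per group), and without GF+MEV replicate 3 the TMM-scaled ratio was 1.01.

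In the cytosolic arm, *Ass1* (ENSMUSG00000076441, chromosome 2, 31470207 to 31520672, plus strand) encodes the synthetase that adds the aspartate nitrogen. It reached 3618, 3090.4, 3617, 3186.5 and 3135 CPM in GF+MEV replicates 1 to 5 and 2457, 2628, 2261, 2904 and 2702 CPM in GF+PBS replicates 1 to 5. With TMM scaling the lowest GF+MEV liver, replicate 2, was above the highest GF+PBS liver, replicate 4. The rise was from 2590.4 ± 244 to 3329 ± 265 CPM (SD, n = 5 each), or 28.5%, equal to 0.36 on the log2 scale (SE 0.080, edgeR adjusted p = 0.0091). The exact two-sided permutation p was 0.00794 (n = 5 mice per group), the smallest that the labelings allow. Without TMM scaling the ratio of mean CPM was 1.22 (exact permutation p = 0.0238, two-sided), and the groups overlapped on that scale. *Ass1* was past the threshold in 19 of 19 alternatives, among them the fit without GF+MEV replicate 2 (log2 fold change 0.39, edgeR adjusted p = 0.0079).

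*Asl* (ENSMUSG00000025533, chromosome 5, 130011258 to 130029247, minus strand) encodes the lyase that yields arginine and fumarate, and it had the largest fold change of the 6. GF+MEV replicates 1 to 5 held 674, 722, 727, 596 and 670.1 CPM, and GF+PBS replicates 1 to 5 held 332, 397, 325, 501 and 461 CPM. Within GF+PBS, replicates 4 and 5 were the highest and replicates 1 and 3 the lowest, yet all stood below the lowest GF+MEV liver. *Asl* rose from 403 ± 77.7 to 678 ± 52.6 CPM (SD, n = 5 each), by 68%, equal to 0.75 on the log2 scale (SE 0.13, edgeR adjusted p = 0.00061). The permutation p was 0.00794 (exact, two-sided, n = 5 mice per group). All 19 alternatives kept it past the threshold, with log2 fold changes of 0.68 to 0.84 and 0.73 without GF+MEV replicate 2.

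*Arg1* (ENSMUSG00000019987, chromosome 10, 24915221 to 24927484, minus strand) encodes the arginase that releases urea. Its level was 1379, 1463, 1312, 1371 and 1458 CPM in GF+MEV replicates 1 to 5 and 1046, 1081, 1026, 1245 and 1226 CPM in GF+PBS replicates 1 to 5. No value was shared between the groups, and GF+MEV replicate 2, the lowest of its group for *Cps1* and *Ass1*, was the highest for *Arg1*. *Arg1* rose by 24.2%, from 1125 ± 103 to 1397 ± 64.0 CPM (SD, n = 5 each), equal to 0.31 on the log2 scale (SE 0.066, edgeR adjusted p = 0.0115, exact two-sided permutation p = 0.00794). It too was past the threshold in 19 of 19 alternatives, with 0.30 on the log2 scale without GF+MEV replicate 2 (edgeR adjusted p = 0.021).

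**Figure D2:**
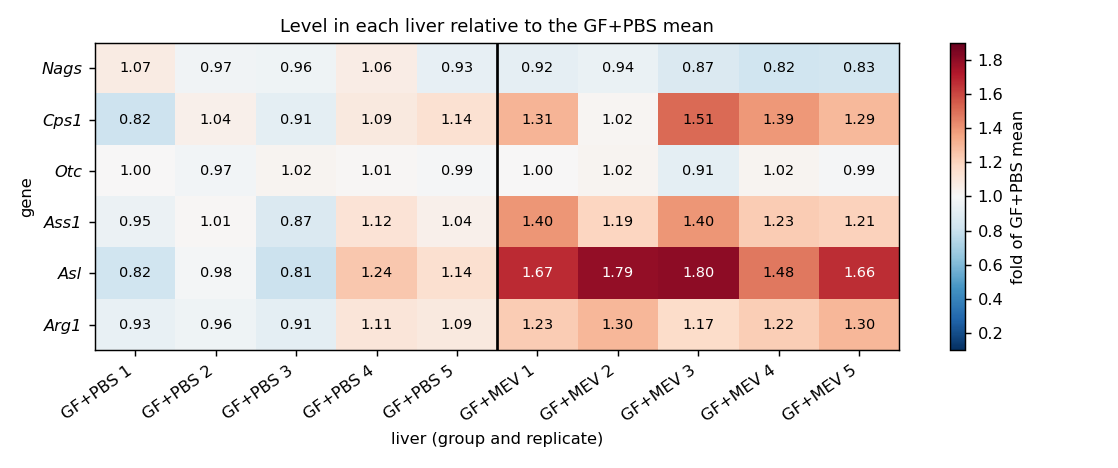
Level of each urea cycle gene (rows) in each liver (columns, group and replicate) as a fold of the mean of the 5 GF+PBS livers, printed in each cell and coloured from blue (below 1) to red (above 1). *Asl* is at 1.48 to 1.80 in the GF+MEV livers, *Otc* at 0.91 to 1.02, and GF+PBS replicates 1 and 3 are below 1 for *Cps1*, *Ass1*, *Asl* and *Arg1* while replicates 4 and 5 are above 1.

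The livers of 1 group also differed among themselves in a shared way. In GF+PBS, replicates 1 and 3 held the lowest pair of values for *Cps1*, *Ass1*, *Asl* and *Arg1*, and replicates 4 and 5 the highest pair. For *Asl* the GF+PBS livers ran from 0.81 to 1.24 times their mean, and for *Otc* only from 0.97 to 1.02 times. With replicates 1 and 3 summed and replicates 4 and 5 summed, so that GF+PBS counted as 3 samples, the log2 fold changes of *Ass1*, *Asl* and *Arg1* were 0.37, 0.76 and 0.33 and all 3 passed the test (edgeR adjusted p of 0.034, 0.0021 and 0.032). *Cps1* did not pass in that fit.

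Because all members are counted in the same library, the ratio of one to another does not depend on how libraries are scaled. Of the 15 pairs, 8 had log2 ratios that did not overlap between the groups, against 10.7% of all gene pairs above a mean of 10 CPM. The pairs share genes and the same 10 livers, so they are given as a description. The ratio of *Otc* to *Asl* moved by 0.783 on the log2 scale, from a mean of 0.238 ± 0.285 in GF+PBS to -0.545 ± 0.163 in GF+MEV (SD, n = 5 each). *Otc* was also lower against *Ass1* (difference -0.38) and against *Arg1* (difference -0.333) in every GF+MEV liver than in any GF+PBS liver. *Nags* likewise was lower against *Ass1*, *Asl* and *Arg1*, by -0.553, -0.955 and -0.505. *Asl* was higher against *Ass1* and *Arg1*, with an *Ass1* to *Asl* difference of -0.402 and an *Asl* to *Arg1* difference of 0.45. By contrast, the *Cps1* to *Ass1* ratio was 0.386 ± 0.166 in GF+MEV and 0.37 ± 0.133 in GF+PBS, and the *Ass1* to *Arg1* ratio differed by 0.048, both with overlap. The *Cps1* to *Otc* ratio (difference 0.397) overlapped as well, through GF+MEV replicate 2.

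To compare levels between genes, CPM were divided by length in kilobases, taken from GENCODE vM21 as the union of all exons of a gene. On this scale the order in GF+MEV livers was *Ass1* (1379 ± 109.9 CPM per kb), *Cps1* (788 ± 108.9), *Arg1* (626.9 ± 28.8), *Asl* (140.3 ± 10.9), *Otc* (109.4 ± 5.20) and *Nags* (20.7 ± 1.23; SD, n = 5 each). In GF+PBS livers the order was *Ass1* (1073 ± 101.2), *Cps1* (604.7 ± 80.3), *Arg1* (505 ± 46.3), *Otc* (110.6 ± 1.94), *Asl* (83.5 ± 16.1) and *Nags* (23.6 ± 1.55). *Asl* and *Otc* thus changed places between the groups. Across livers *Asl* spanned 123.4 to 150.5 CPM per kb in GF+MEV and 67.3 to 104 in GF+PBS, and *Otc* 100.6 to 113 and 108 to 113. The ranges of *Cps1* and *Arg1* overlapped in both groups, although within a liver *Cps1* was above *Arg1* in 5 of 5 GF+PBS and 4 of 5 GF+MEV livers. Their order depended on the length used. With the length of the principal transcript alone *Arg1* was above *Cps1* in 5 of 5 GF+PBS and 4 of 5 GF+MEV livers, and its mean was 1.20 times *Cps1* in GF+MEV and 1.26 times in GF+PBS, where the exon union gave 0.796 and 0.835. With that length *Asl* (134.8 to 207.8 CPM per kb) overlapped *Otc* (197.3 to 206.6) in GF+PBS and lay above it in GF+MEV (247.1 to 301.3 against 184 to 207.2). *Ass1* was highest and *Nags* lowest with either length.

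**Figure D3:**
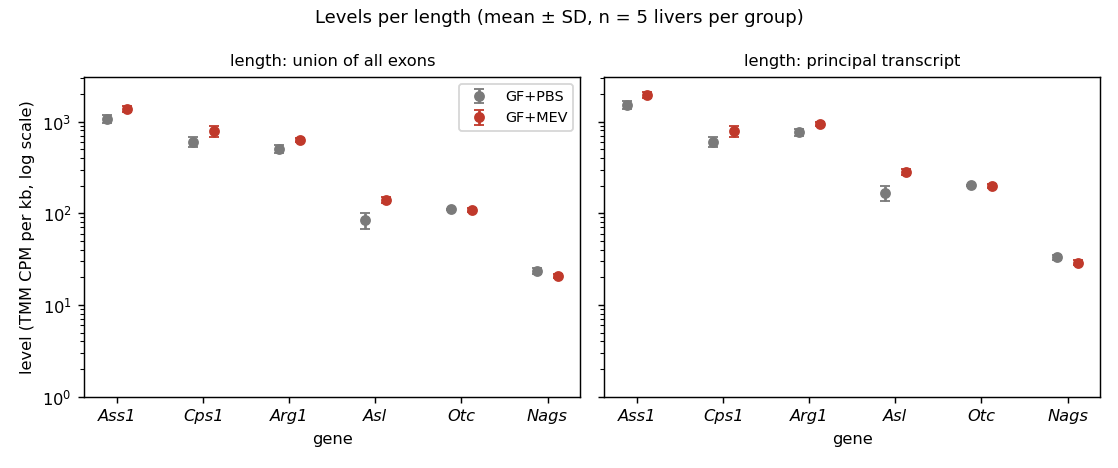
Level per length of each urea cycle gene, in TMM-scaled CPM per kb on a log axis, as the mean ± SD of 5 livers, with GF+PBS in grey and GF+MEV in red, using the union of all exons (left) or the principal transcript (right). *Ass1*, *Cps1* and *Arg1* are several times above *Asl* and *Otc*, *Nags* is lowest, and *Arg1* and *Cps1* change order between the panels.

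For 3 of the 6 members, *Ass1*, *Otc* and *Nags*, RefSeq sequence upstream of the gene start was at hand (build GRCm38.p6). The stretches before *Ass1*, which rose, and *Otc*, which did not pass the test, are shown because they are unlike in base composition. CpG dinucleotides are in capitals and all other bases in lower case, 5′ to 3′ on the plus strand, the strand of both genes. The *Ass1* stretch is chr2:31470020-31470206, 187 bases that end just before the first annotated start of the gene, and the *Otc* stretch is chrX:10252055-10252304, the 250 bases before its start.
Ass1: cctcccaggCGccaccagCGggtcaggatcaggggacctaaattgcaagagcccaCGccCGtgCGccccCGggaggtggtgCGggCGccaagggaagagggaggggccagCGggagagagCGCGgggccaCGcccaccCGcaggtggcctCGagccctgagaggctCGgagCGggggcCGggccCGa
Otc: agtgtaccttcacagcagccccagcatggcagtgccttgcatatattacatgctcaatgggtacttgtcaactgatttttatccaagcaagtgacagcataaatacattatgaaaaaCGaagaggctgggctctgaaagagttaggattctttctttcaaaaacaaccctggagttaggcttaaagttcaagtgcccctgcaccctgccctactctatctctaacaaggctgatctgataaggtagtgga
The 250 bases before the RefSeq start were 75.6% G or C with 23 CpG for *Ass1*, 55.6% with 11 for *Nags*, and 43.6% with 1 for *Otc*. The median over 32851 such windows of mouse genes was 52.4% and 6, and 86.7%, 64.4% and 7.9% of windows had fewer CpG than those of *Ass1*, *Nags* and *Otc*. In all, 4 short motifs were searched on both strands of these 250 bases, TTGCNNAA (a C/EBP site), TGACG (the core of a cAMP response element), ACANNNTGT (the core of a glucocorticoid response element) and TATAAA (the TATA box). None of these letters occurred in the 3 windows, while 9.6%, 17.8%, 5.8% and 12.4% of all windows held them. The search does not bear on whether the factors act on these genes, and the windows of *Cps1*, *Asl* and *Arg1* were not analysed here.

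Around the cycle, 46 partner genes were listed by role, and 40 of them were tested. Of the 40, 12 were higher and 3 lower in GF+MEV, and their median log2 fold change was 0.0487. Over all genes tested 4.12% were higher and 3.52% lower, the shares to set beside the counts of every list below. Of the 40, 18 had an unadjusted edgeR p under 0.05, against 21.2% of all genes. DESeq2 called 17 of the 40, and 1201 of the 12138 genes it tested. The partner list was drawn up with earlier results of these data known, so its counts are a description. *Arg2*, the mitochondrial arginase, was among the 6 not tested, as were *Slc7a1*, *Slc25a2*, *Slc25a18*, *Slc38a5* and *Rhbg*.

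Of 4 mitochondrial carriers, 2 rose. *Slc25a15*, which exchanges ornithine for citrulline across the inner membrane and so links OTC with the cytosolic enzymes, ran from 338 to 458 CPM (median 364) in GF+MEV and from 270 to 296 CPM (median 283) in GF+PBS. The groups did not overlap, and the log2 fold change was 0.42 (SE 0.082, edgeR adjusted p = 0.0034). *Slc25a22*, a glutamate carrier, rose from 304 ± 20.4 to 466 ± 62.7 CPM (SD, n = 5 each; log2 fold change 0.62, edgeR adjusted p = 0.00035). *Slc25a13*, citrin, which exports the aspartate that ASS1 uses, had a log2 fold change of 0.062 and its relative *Slc25a12* one of 0.064, and neither passed the test.

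Among 13 genes of nitrogen and carbon supply, 3 rose and 1 fell. *Got1*, the cytosolic aspartate aminotransferase, rose by 1.27 on the log2 scale, while *Got2*, its mitochondrial counterpart, had 0.011 and did not pass. *Gpt2*, the mitochondrial alanine aminotransferase, rose by 0.49 (edgeR adjusted p = 0.0026), and *Sds*, serine dehydratase, by 1.58 (edgeR adjusted p = 9.2e-06). The exons of *Sds* overlap *Plbd2* on the other strand, and *Car5a*, *Gls2*, *Got2*, *Slc7a2*, *Cebpa*, *Cebpb*, *Axin2*, *Tbx3* and *Glul* also overlap a gene on the other strand, whose reads could be included if strand was ignored. *Car5a*, the mitochondrial carbonic anhydrase that gives CPS1 its bicarbonate, was the member of this list that fell, from 59.4 to 70.6 CPM in GF+PBS to 51.9 to 57.3 CPM in GF+MEV (log2 fold change -0.26, edgeR adjusted p = 0.018). The enzymes that free ammonia inside mitochondria, *Glud1* and *Gls2*, had log2 fold changes of -0.0059 and 0.042 and did not pass the test.

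On the product side, 1 of 3 genes of fumarate return rose. *Fh1*, fumarase, which takes up the fumarate that ASL releases, measured 275 to 310.5 CPM in GF+MEV and 207 to 246 CPM in GF+PBS (log2 fold change 0.37, SE 0.059, edgeR adjusted p = 0.0021). Of 5 tested genes of the arginine and ornithine branches 0 rose and 1 fell. That gene was *Agmat*, agmatinase, at -0.19 on the log2 scale (edgeR adjusted p = 0.045), a call kept in only 7 of 19 alternatives. *Oat*, ornithine aminotransferase, had 0.0015. Of 5 amino acid and urea transporters, 2 rose by edgeR, while 4 had an unadjusted edgeR p under 0.05 and DESeq2 called 4. The other two were the amino acid transporter genes *Slc38a3* and *Slc38a4*, with log2 fold changes of -0.25 and 0.28 (edgeR adjusted p of 0.082 and 0.054). *Slc7a2*, the cationic amino acid transporter CAT2 that carries arginine and ornithine, ran from 997 to 1196 CPM in GF+MEV and from 381 to 804 CPM in GF+PBS (log2 fold change 0.95, SE 0.20, edgeR adjusted p = 0.0015). *Slc38a2*, the neutral amino acid transporter SNAT2, had the largest change of the 40, from 101.4 ± 17.3 to 438 ± 45.6 CPM (SD, n = 5 each; log2 fold change 2.11, edgeR adjusted p = 2.8e-08).

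**Figure D4:**
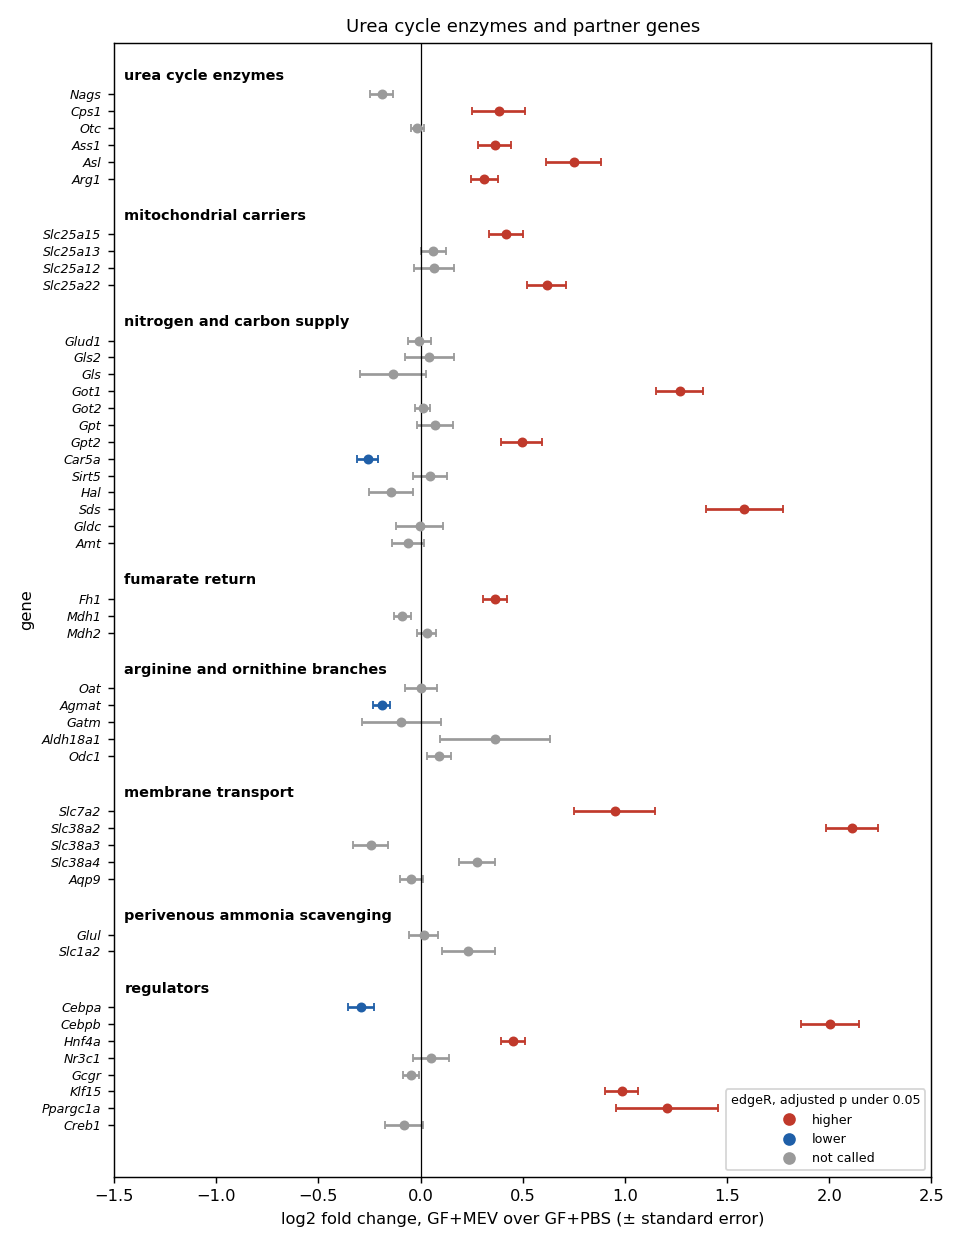
Log2 fold change of GF+MEV over GF+PBS (horizontal axis, point ± standard error) for the 6 urea cycle enzymes and the 40 partner genes tested, grouped by role, with genes higher by edgeR at an adjusted p under 0.05 in red, lower in blue and the others in grey. *Slc25a15* (0.42) and *Fh1* (0.37), which act next to OTC and ASL in the pathway, have values near those of *Cps1*, *Ass1* and *Arg1*. *Otc* (-0.016), *Slc25a13* (0.062), *Glud1*, *Gls2*, *Got2*, *Oat* and *Glul* lie near 0, and *Car5a* (-0.26) is lower.

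Of 8 regulators known to act on urea cycle genes or on hepatic amino acid metabolism, 4 rose and 1 fell. *Cebpa* and *Cebpb* encode related C/EBP transcription factors and went in opposite directions. *Cebpa* fell by 0.29 on the log2 scale (edgeR adjusted p = 0.014), a call lost with GF+PBS replicates 1 and 3, and 4 and 5, summed (edgeR adjusted p = 0.072), and *Cebpb* rose from 73.9 ± 14.3 to 297 ± 29.2 CPM (SD, n = 5 each; edgeR adjusted p = 8.5e-08). *Klf15*, a transcription factor of amino acid catabolism, rose from 214 ± 24.0 to 422 ± 24.7 CPM (SD, n = 5 each; log2 fold change 0.98, edgeR adjusted p = 1.1e-06). The nuclear receptor gene *Hnf4a* rose by 0.45 (edgeR adjusted p = 0.00036) and the coactivator gene *Ppargc1a* by 1.21. The genes of the glucocorticoid receptor, glucagon receptor and CREB were not called.

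The urea cycle is a periportal pathway, so markers of liver zonation were read beside it. Of 10 periportal markers, 3 were higher and 0 lower, namely *Pck1*, *Sds* and the cadherin gene *Cdh1* (log2 fold change 0.35, edgeR adjusted p = 0.012). The other 7 were not called (edgeR unadjusted p under 0.05 in 4 of the 10, DESeq2 calls in 3). Of the 10, 6 had a positive and 4 a negative log2 fold change, with a median of 0.0763. Some markers of both zones, *Sds* among them, are also partner genes counted above, so these counts are not separate from those. Of 10 pericentral markers tested, 2 were lower, *Axin2* and *Tbx3*, with log2 fold changes of -1.01 and -0.97 (edgeR adjusted p of 0.0021 and 0.0034). Another, *Cyp27a1*, was higher by 0.27 (edgeR adjusted p = 0.015), a call lost under upper-quartile normalization (edgeR adjusted p = 0.0504). Of these 10 markers, 5 had a positive and 5 a negative log2 fold change, 6 had an unadjusted edgeR p under 0.05, and DESeq2 called 3. *Glul*, glutamine synthetase of the ammonia-scavenging hepatocytes around the central vein, had a log2 fold change of 0.014, and of the 2 scavenging genes tested 0 were called by edgeR or DESeq2, with 1 at an unadjusted edgeR p under 0.05.

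In bulk liver, fewer cells of a type and less RNA per cell cannot be told apart. Of 8 hepatocyte markers, 0 were called by edgeR or DESeq2 (unadjusted edgeR p under 0.05 in 3), and their summed level was 108700 to 129000 CPM in GF+MEV and 112100 to 130300 CPM in GF+PBS, ranges that overlap almost wholly. Markers of Kupffer cells and stellate cells had 0 of 8 called each by edgeR and by DESeq2 (unadjusted 0 and 1), with sums of 228.9 to 438.7 against 262.4 to 381.9 CPM and of 279.7 to 383.1 against 320.4 to 346.2 CPM. Endothelial markers had 1 higher and 1 lower of 8 (sums of 175.3 to 281.1 and 218.6 to 283.3 CPM). Of 3 cholangiocyte markers tested 1 was higher, *Krt19* (sums of 28.1 to 79.3 and 23.2 to 29.7 CPM), and all 3 had an unadjusted edgeR p under 0.05. The other two, *Sox9* and *Spp1*, had log2 fold changes of -0.98 and 0.52 (edgeR adjusted p of 0.103 and 0.133). In addition, of 4 lymphocyte markers 2 were lower, *Cd79a* and *Cd79b* (sums of 7.11 to 14.6 and 11.6 to 15.3 CPM). Muscle markers had 0 of 5 called by either tool (unadjusted edgeR p under 0.05 in 2; sums of 248.3 to 341.8 and 209 to 765.1 CPM) and the 1 pancreas marker tested was not called (13.2 to 15.3 and 11.4 to 20.3 CPM). Of 6 granulocyte markers 0 were tested. The part of cell composition in the levels of the urea cycle genes was not tested.

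For each member, the genes whose log2 CPM, centred on their own mean, lay closest to it over the 10 livers were found among 7486 candidates above a mean of 10 CPM, by the root mean square difference. Closest to *Cps1* were *Urad* (0.0827), a gene of urate breakdown, and *Fat1* (0.0891). *Ass1* had *Atl2* (0.0704) and *Fh1* (0.0781), the fumarase gene of the partner list. *Asl* had *Mknk2* (0.0847) and *Slc15a4* (0.0943), and *Arg1* had *Sfxn1* (0.0578), a mitochondrial serine transporter, and *Sf3b1* (0.0602), a splicing factor. *Nags* lay near *Acy3* (0.0397) and *Edf1* (0.0452), and *Otc* near *Suclg2* (0.0206), a subunit of mitochondrial succinyl-CoA ligase, and *Fam174a* (0.0231). No member was among the 2 closest genes of another. Some ranked high all the same, with *Arg1* at rank 43 for *Ass1* and *Ass1* at rank 45 for *Cps1*. The nearest member to *Nags* was *Otc* at rank 1264, and the nearest to *Otc* was *Nags* at rank 2921. The smaller differences of *Nags* and *Otc* from their closest genes go with their smaller spread over the livers. Each gene was centred over all 10 livers, so the difference between the groups enters the measure, which says nothing of shared control.

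**Figure D5:**
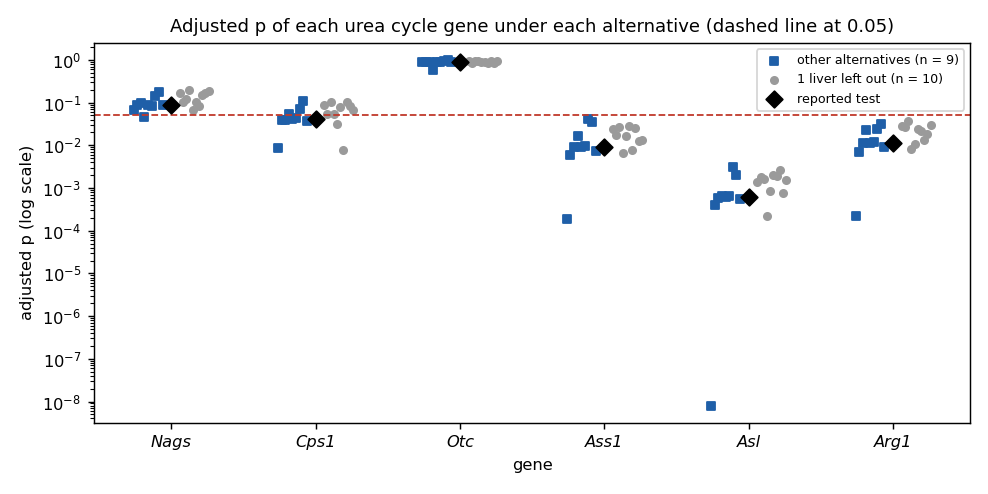
Adjusted p of each urea cycle gene (log axis) in the reported edgeR test (black diamonds), in 9 other analyses (blue squares) and with each of 10 livers left out in turn (grey circles), with the threshold of 0.05 as a dashed line. *Ass1*, *Asl* and *Arg1* stay below the line throughout, *Otc* stays above it, *Cps1* lies on both sides, and *Nags* is below it in 1 analysis.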

How the data were processed

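Liver RNA of 5 GF+MEV and 5 GF+PBS mice was analysed. Per the labels and the study's methods, the authors demultiplexed reads with bcl2fastq 2.17, aligned them to GRCm38 with STAR 2.7.3a, counted reads per gene with HTSeq and removed genes with fewer than 20 counts over all samples. The deposited values are raw counts, with no normalization, keyed by Ensembl gene. The strand setting of the counting is not given in the sources used here. The table also held 5 columns that match no described sample and were not used.

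Counts were compared with edgeR 4.0.16 in R 4.3.3 (TMM scaling, quasi-likelihood fit on group, at least 20 counts summed over the 10 libraries, Benjamini-Hochberg adjustment over 12147 genes). Standard errors were taken on the log2 CPM scale (prior count 2). Single values were compared by exact permutation over all labelings of the mice. Symbols, places and lengths came from GENCODE vM21. In simulated data on 12147 genes, edgeR recovered 46 of 100 genes changed by 0.4 and 87 of 100 changed by 1 on the log2 scale, with 8 false calls. Alternatives were DESeq2 1.42.0, limma-voom (limma 3.58.1), other normalizations and filters, a replicate block, summed GF+PBS libraries, 3 genes left out of the library size, and each liver left out. Principal transcript lengths were added after the data were seen.

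The members and lists were chosen with earlier results of these data known. Named genes were the 6 members, every called gene of the partner and zonation lists, 11 further genes of central role (not tested where filtered), and the 2 genes closest to each member. *Slc25a12*, *Slc38a3*, *Slc38a4*, *Sox9*, *Spp1*, *Krt19*, *Cd79a* and *Cd79b* were named after their values were seen.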

Additional observations from a re-analysis of the deposited data

Results flagged for a closer look

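The TMM scaling factor of GF+MEV replicate 2 was 0.8902, and the other 4 GF+MEV libraries had factors of 0.9775 to 1.009. The gap to the nearest library was 0.734 of the whole range, above Dixon's critical value of 0.71 for 5 samples. It was the only one of 16 groups of 5 values tested in this way that stood out, and chance alone gives about 1 in 20. CT010467.1, Gm23935 and *Lars2* took 9.24% of the counts of this library. Leaving those 3 genes out of the library size called 936 genes in place of 928, 927 of them shared.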

How the results depend on the processing

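Over 19 alternatives *Ass1*, *Asl* and *Arg1* kept their direction and stayed past the threshold, and 3 or 4 members were called under each. The 4 under upper-quartile normalization were 3 higher and 1 lower, *Nags* (edgeR adjusted p = 0.047). *Cps1* kept its direction, but not its call, also under upper-quartile normalization (log2 fold change 0.34, edgeR adjusted p = 0.053). The fit with GF+PBS replicates 1 and 3, and 4 and 5, summed called 561 genes against 928 (552 shared), and with each liver left out 696 to 926 genes were called. DESeq2 called 1201. Upper-quartile normalization called 1040 genes, 41.2% of them higher, against 53.9% in the reported test. TMM factors were 0.8902 to 1.009 in GF+MEV and 1.003 to 1.043 in GF+PBS, so the scaling shifts the groups against each other. On CPM without TMM scaling, the GF+MEV to GF+PBS ratio of means was 1.24 for *Cps1* (exact permutation p = 0.0714) and 0.938 for *Otc* (exact permutation p = 0.0397). For *Nags* the unscaled ratio was 0.831 (exact permutation p = 0.00794). For *Ass1* it was 1.22 (exact permutation p = 0.0238), so the separation of its groups depended on the scaling. For *Asl* and *Arg1* it was 1.59 and 1.18 (exact permutation p = 0.00794 for each). With TMM scaling and each liver left out, the ratios were 1.25 to 1.37 for *Cps1* and 0.980 to 1.01 for *Otc*. The causes were not tested.

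The labels do not say whether the replicate numbers pair samples across the groups. Deviations of same-numbered livers correlated by -0.122 to 0.178 over the 5 numbers. Of 10 livers, 3 correlated best with their own number in the other group. So few values cannot decide whether the numbers pair the samples. A replicate block called 792 genes, 725 of them shared, with *Ass1*, *Asl* and *Arg1* past the threshold and *Cps1* at 0.38 on the log2 scale (edgeR adjusted p = 0.07). *Oat* was at -0.0057 with the block. 

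Genes near 0 changed sign. On the log2 scale upper-quartile normalization gave -0.031 for *Got2*, -0.0401 for *Oat* and -0.0276 for *Glul*, limma-voom -0.0057 for *Oat*, at least 10 counts in every library -4e-04 for *Oat*, and the summed GF+PBS libraries -0.001 for *Oat* and -0.0042 for *Glul*. Leaving out each liver gave -0.0285 to 0.013 for *Otc*, -0.0347 to 0.0258 for *Glud1*, -0.0125 to 0.117 for *Gls2*, -0.0085 to 0.0383 for *Got2*, -0.0598 to 0.0602 for *Oat*, -0.0111 to 0.0582 for *Glul* and -0.0325 to 0.0074 for *Suclg2*. The *Arg1* to *Cps1* level per kb was 1.26 in GF+PBS and 1.20 in GF+MEV with the principal transcript length.

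With 5 livers per group, changes of the size seen for *Cps1* were often missed in simulated data on 12147 genes. That rate covers genes at large and was not measured for the members themselves. *Otc* had a log2 fold change of -0.016 (SE 0.033), and its values over 19 alternatives ran from -0.0578 to 0.013. These values are far from the 0.38 of *Cps1*. The alternatives reuse the same livers, however, so their range does not bound the change in *Otc*. It also leaves out CPM without TMM scaling, where the ratio of means was 0.938 (exact permutation p = 0.0397). A member that did not pass is still not shown to be unchanged.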
